A study of Rattus norvegicus with 15 samples.

Results

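The insulin-like growth factor (IGF) family was followed in rat testis after irradiation. The family was taken as the 10 genes Igf1, Igf2, Igf1r, Igf2r and Igfbp2 to Igfbp7 in the series' platform annotation, and its members are the 23 probe sets that carry one of these symbols and no other. The series has 31042 probe sets besides array controls. Of the 23, 17 were bright enough to test (at or above the median of their own array in 5 or more of 15 arrays), among 18711 tested probe sets and 10841 tested genes. The other 6 lay below that median in every array and were not tested: 3 for Igf2 and 3 for Igfbp5.

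Testis RNA of LBNF1 rats, a hybrid strain, was read on Affymetrix arrays, and the labels give an age of 25 to 27 weeks. The control group has 10 arrays and the irradiated group 5. Irradiated rats received 6 Gy to the lower abdomen, per the treatment text, which stands on every sample. Control testes are described as taken before irradiation, and how long after irradiation testes were collected is not stated in the labels. Samples are called biological replicates with nothing on whether each is a separate rat. The tests here thus cover the spread between samples, which may not be the spread between rats. No other allele, transgene or agent is named for either group.

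IGF-1 and IGF-2 are small secreted peptides related to insulin. Both signal through the IGF-1 receptor, a tyrosine kinase, whereas the IGF-2 receptor binds IGF-2 and mannose 6-phosphate tags and carries them to lysosomes without kinase signalling. Binding proteins (IGFBPs) hold the peptides in the extracellular fluid and can restrain or prolong their action, and IGFBP-7 binds them only weakly. In the testis, Leydig, peritubular and Sertoli cells are known sources of IGF-1, and the receptor is found on both somatic and germ cells.

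All 10 genes had a higher signal in irradiated testes in at least 1 tested probe set, and none of the 17 tested probe sets was lower. As measured, the 17 rises ranged from 0.97 to 4.36 on the log2 scale (irradiated minus control). In each of the 17, the 5 irradiated arrays lay above all 10 control arrays. Both counts belong to a series in which most genes moved. Of all tested probe sets, 83.4% passed an adjusted p of 0.05 (limma, Benjamini-Hochberg), 49% were higher and 34.3% lower. The irradiated arrays lay above all control arrays in 41.3% of them and below all in 24.2%. By gene, 85.5% passed, and 40.5% had every irradiated array above every control array. One of the 17, 1382599_at of Igf1, reached the array median in no control array and so was tested only through its high irradiated values. Igfbp5 1387348_at was below the median in 9 of 10 control arrays, and Igfbp5 1370960_at and Igfbp3 1386881_at in 7 of 10. They too reached the required 5 arrays only with irradiated arrays. For all of these probe sets, a place in both counts partly follows from the filter. Each gene is read by the probe set with the highest mean over all 15 arrays, irradiated ones included, which can favour the one that rose more. For Igf1r this took 1392492_at (change 2.89), although 1368123_at (1.40) was brighter in control arrays. As a description of size, 8 of 10 genes rose by at least 2 log2 units, as did 14.1% of all tested genes. By probe set these shares were 12 of 17 and 15.1%. With dim control arrays held at their medians, the counts were again 8 of 10 and 12 of 17. The median change was 2.84 over the 10 genes, both as measured and with those bounds, and 0.20 over all tested genes.

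**Figure D1:**
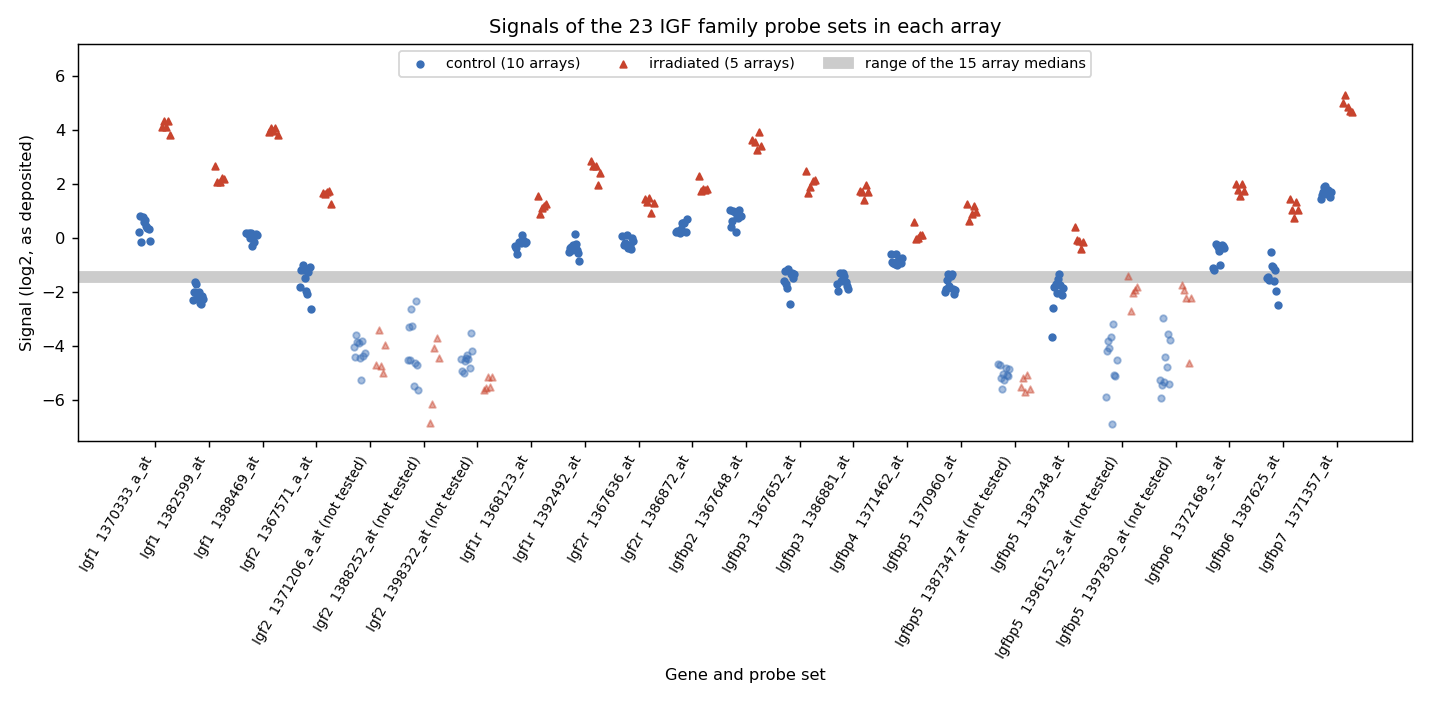
Signal (log2, as deposited) of each of the 23 probe sets in the 10 control arrays (blue circles) and the 5 irradiated arrays (red triangles), with the range of the array medians in grey and untested probe sets in pale colours. The 17 tested probe sets have all irradiated arrays above all control arrays, and the 6 pale ones lie below their own array's median in both groups.

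In bulk tissue, fewer cells of a type and less RNA per cell cannot be told apart. Spermatocyte and spermatid marker signals had nearly gone from the irradiated arrays, and no marker list for spermatogonia was read. The summed spermatid marker signal, back-transformed from log2, was 352 to 545 in control and 1.29 to 4.20 in irradiated arrays, with 11 of 11 tested markers lower. For spermatocyte markers it was 61.2 to 81.6 and 0.428 to 0.60, with 5 of 5 lower. Somatic markers moved the other way: Sertoli 31.3 to 42.8 against 138 to 189 (13 of 13 tested markers higher, Amh and Gdnf below the median in every array), Leydig 8.48 to 11.6 against 100.3 to 124 (11 of 11), and peritubular myoid 7.89 to 10.8 against 26.3 to 35.2 (8 of 8). Macrophage markers went from 3.15 to 4.87 up to 25.2 to 28.7 (10 of 10, Itgam below the median in every array) and endothelial ones from 1.87 to 3.00 up to 4.98 to 5.80 (7 of 8 higher, 1 lower). Blood markers were 3.02 to 5.08 against 8.96 to 15.2 (2 of 3 higher, 1 lower), lymphocyte markers 1.24 to 2.07 against 1.95 to 2.30 (1 of 2 higher, 1 lower) and adipocyte markers 0.814 to 1.34 against 1.98 to 2.82 (1 of 2 higher). Epididymal epithelium had 2 of 6 markers on the array, none tested, at 0.318 to 0.830 and 0.338 to 0.446. Counts of markers higher or lower partly follow from the filter. Macrophage Cd68, Cd163, C1qa, C1qb, C1qc, Ptprc and Cd14 and endothelial Pecam1, Kdr, Eng, Tie1 and Emcn passed it only with irradiated arrays. So did myoid Tagln, Cnn1 and Tpm2 and adipocyte Cfd. The spermatocyte and spermatid markers needed control arrays to pass. The part of these marker shifts in the IGF family's rises was not tested.

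The upstream windows of 5 members are shown because these members span the range of rises: the ligand with the largest rise as measured, both receptors, and the binding proteins with the largest and the smallest. Each holds the 250 bases before the gene's start from RefSeq (GRCr8), 5′ to 3′ on the gene's strand, with capitals for matches to the motifs searched. Igf1 is at chr7:24172282-24172531 on the plus strand, Igf1r at chr1:130959747-130959996 (plus), Igf2r at chr1:50526628-50526877 (plus), Igfbp3 at chr14:86277945-86278194 (minus) and Igfbp4 at chr10:84491221-84491470 (plus).
Igf1: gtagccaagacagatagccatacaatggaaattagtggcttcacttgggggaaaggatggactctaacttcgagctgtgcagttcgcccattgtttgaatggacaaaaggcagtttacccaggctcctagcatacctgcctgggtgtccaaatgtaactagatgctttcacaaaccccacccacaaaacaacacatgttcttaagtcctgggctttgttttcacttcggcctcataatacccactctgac
Igf1r: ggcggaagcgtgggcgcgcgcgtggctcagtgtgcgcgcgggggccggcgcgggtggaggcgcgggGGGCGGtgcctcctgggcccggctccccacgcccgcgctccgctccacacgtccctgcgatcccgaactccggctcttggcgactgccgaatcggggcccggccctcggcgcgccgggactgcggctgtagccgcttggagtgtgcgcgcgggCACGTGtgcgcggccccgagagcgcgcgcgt
Igf2r: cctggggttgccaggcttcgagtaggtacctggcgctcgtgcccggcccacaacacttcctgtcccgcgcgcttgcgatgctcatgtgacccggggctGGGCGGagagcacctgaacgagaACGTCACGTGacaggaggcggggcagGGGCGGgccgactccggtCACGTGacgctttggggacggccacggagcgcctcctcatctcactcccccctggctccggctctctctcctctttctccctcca
Igfbp3: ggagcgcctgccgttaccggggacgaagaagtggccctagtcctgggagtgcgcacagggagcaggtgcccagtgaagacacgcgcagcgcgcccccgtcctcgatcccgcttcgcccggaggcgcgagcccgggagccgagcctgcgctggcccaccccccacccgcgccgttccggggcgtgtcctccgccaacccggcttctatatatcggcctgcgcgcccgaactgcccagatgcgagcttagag
Igfbp4: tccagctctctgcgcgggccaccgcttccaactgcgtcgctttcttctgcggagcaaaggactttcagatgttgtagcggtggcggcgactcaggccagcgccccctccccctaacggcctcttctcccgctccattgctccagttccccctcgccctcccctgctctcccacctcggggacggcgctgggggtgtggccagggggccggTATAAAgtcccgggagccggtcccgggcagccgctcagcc

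Searched on both strands were the TATA box TATAAA, the GC box GGGCGG, the E-box CACGTG, the CCAAT box CCAAT, the cyclic AMP response element core TGACGT and CAAGGTCA, a site of the steroidogenic factor SF-1. RefSeq gave 11 windows for the 10 genes, 2 of them for Igf2. The E-box stood in 3 of 11 windows (Igf1r, Igf2r with 2 copies, and Igfbp2), against 5.59% of 33469 windows of the same length. In Igf2r, 1 E-box overlaps the window's TGACGT match. The GC box stood in 5 of 11 windows (30.5% of all), TATAAA only in that of Igfbp4 (12.9%), and TGACGT only in that of Igf2r (6.95%). Neither CCAAT (34% of all) nor CAAGGTCA (1.33%) matched in the 11 windows. The Igf1 window held none of the 6 motifs and had 46.8% G and C, the lowest of the 11, and that of Igf1r had 79.6%, the highest. A match is a description of letters, not a bound site.

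Igf1, which encodes the main ligand, showed the largest rise of the family as measured. Its probe set with the brightest mean, 1370333_a_at, ran from -0.13 to 0.83 in control arrays (median 0.42) and read 4.13, 4.34, 4.11, 4.34 and 3.83 in irradiated replicates 1 to 5. The lowest irradiated array stood 3.00 log2 units above the highest control array. The change was 3.74 ± 0.16 (SE; adjusted p = 1.04e-12), a 13.3-fold rise that ranked 183 among 10841 genes ordered by rise. Probe set 1388469_at gave the same picture with a tighter spread: -0.29 to 0.21 in control (median 0.14) and 3.96, 4.09, 3.99, 4.09 and 3.82 after irradiation, a change of 3.91 ± 0.09 (adjusted p = 7.64e-16). The third, 1382599_at, was below the array median in all 10 control arrays (-2.44 to -1.62, median -2.16) and well above it after irradiation, at 2.67, 2.10, 2.11, 2.23 and 2.20. With each control array set at its median, this probe set was at least 13.3-fold higher in irradiated testes. The adjusted p of 4e-14 belongs to its change as measured, 4.36, which was not the bound. That bound, a rise of 3.73, exceeds neither the change of 1370333_a_at nor that of 1388469_at. The changes of those 2 probe sets differed by 0.17 (exact permutation p = 0.382, adjusted p = 0.467 over 11 pairs of probe sets).

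Igf2, the ligand best known from fetal growth, rose in the 1 of its 4 probe sets that was bright enough to test. Probe set 1367571_a_at lay on both sides of the array median in control testes, below it in 5 arrays, with values from -2.62 to -0.98 and a median of -1.35. In irradiated replicates 1 to 5 it read 1.69, 1.65, 1.74, 1.75 and 1.26. The control mean of -1.55 ± 0.54 (SD, n = 10) lay below the array median, so the change of 3.17 ± 0.23 (SE; adjusted p = 1.58e-09) is given as a rise of at least 2.90. The remaining 3 Igf2 probe sets, which all carry the accession M17960 in the annotation, were below the array median in every array. Their means were -4.17, -4.09 and -4.46 in control and -4.35, -5.03 and -5.39 in irradiated testes, a range that gives no size of change. Whether these 3 measure the same transcripts as 1367571_a_at was not tested. Since Igf2 has only a lower bound, the rises of the 2 ligands could not be ordered.

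Igf1r, the signalling receptor, rose in both of its probe sets, by unequal amounts. In 1392492_at the control arrays ran from -0.82 to 0.15 (median -0.40) and the irradiated arrays read 2.86, 2.68, 2.66, 1.98 and 2.43, a change of 2.89 ± 0.15 (SE; adjusted p = 1.47e-11), or 7.43-fold. In 1368123_at the control range was -0.56 to 0.11 (median -0.15) and the irradiated values were 1.59, 0.92, 1.12, 1.20 and 1.26, a change of 1.40 ± 0.12 (adjusted p = 6.47e-09), or 2.64-fold. The groups did not overlap in either probe set. The difference of 1.49 log2 units between the changes passed (exact permutation p = 0.000333, the smallest that 3003 splits of the arrays can give, adjusted p = 0.00122). The size of the Igf1r rise thus differs with the probe set read, and the annotation used here does not place either on the transcript.

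Igf2r, the scavenger receptor for IGF-2, rose in both probe sets. In 1386872_at, control arrays ran from 0.18 to 0.73 (median 0.32) and irradiated arrays read 2.30, 1.76, 1.81, 1.80 and 1.84, a change of 1.50 ± 0.11 (SE; adjusted p = 2.38e-09). In 1367636_at the control range was -0.39 to 0.14 (median -0.19) and the irradiated values were 1.46, 1.34, 1.48, 0.92 and 1.31, a change of 1.45 ± 0.11 (adjusted p = 2.93e-09). The changes of the pair differed by 0.05 (exact permutation p = 0.742, adjusted p = 0.742). By the brighter probe set of each receptor, Igf1r rose by 1.39 more than Igf2r (exact permutation p = 0.000333, adjusted p = 0.00122). That order rests on 1392492_at, since the other Igf1r probe set changed by 1.40. The insulin receptor gene Insr, the closest relative of Igf1r, did not pass in 1369051_at (0.41 ± 0.20, adjusted p = 0.0714), where 7 of 10 control and 3 of 5 irradiated arrays were below the array median. It passed without control replicate 8 (0.46, adjusted p = 0.0499), without control replicate 9 (0.46, adjusted p = 0.0455), without control replicates 6, 7 and 8 (0.55, adjusted p = 0.0262), with control replicates 1 to 5 only (0.73, adjusted p = 0.00534) and with array weights (0.51, adjusted p = 0.0245). The second Insr probe set, 1392043_at, missed the filter; its means were -3.10 in control, where every array was below the median, and -1.15 in irradiated testes, with all irradiated arrays above all control arrays. No difference in change between Igf1r and Insr is given, because neither Insr probe set had a control mean above the array median.

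**Figure D2:**
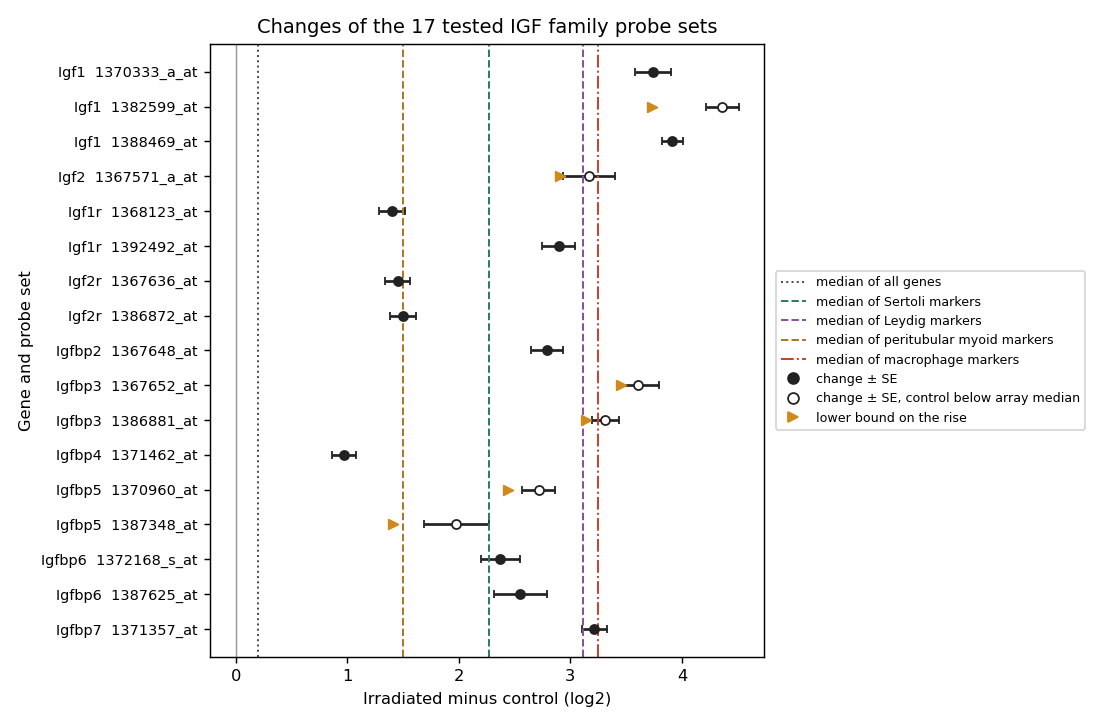
Change of each tested probe set (irradiated minus control, log2) with its moderated standard error as a bar, open circles where the control mean lay below the array median and triangles for the lower bound on those rises, against dashed lines for the medians of all genes and of 4 marker lists. Igf1 lies to the right of every line, and Igfbp4 to the left of all but the line for all genes. All lines use changes as measured, and the macrophage and peritubular myoid lists include markers with dim controls.

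The 6 binding protein genes rose by 0.97 to 3.61 in their brightest probe sets. Igfbp3, which carries most circulating IGF in a complex with a further subunit, rose most as measured. Its probe set 1367652_at ran from -2.43 to -1.14 in control arrays (median -1.40) and read 2.51, 1.69, 1.92, 2.13 and 2.16 after irradiation. The change of 3.61 ± 0.19 (SE; adjusted p = 1.46e-11) became a rise of at least 3.45 with control arrays held at their medians. The second probe set, 1386881_at, had control values of -1.93 to -1.26 (median -1.61) and irradiated values of 1.76, 1.73, 1.42, 1.97 and 1.70. It rose by at least 3.14 (adjusted p = 1.95e-13 for the change as measured) and passed the filter only with irradiated arrays.

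Igfbp7, which also acts outside the IGF system as a matrix-associated protein, was already well above the array median in control testes. It ran from 1.47 to 1.94 (median 1.72) in control arrays and read 5.03, 5.33, 4.86, 4.73 and 4.68 in irradiated arrays. The change was 3.22 ± 0.11 (SE; adjusted p = 7.46e-14), or 9.29-fold. Igfbp2 followed, from 0.24 to 1.05 (median 0.81) in control arrays to 3.63, 3.58, 3.28, 3.93 and 3.42 after irradiation, a change of 2.79 ± 0.14 (adjusted p = 1.18e-11). Neither gene has a second probe set in the family's list.

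Igfbp5, a binding protein that attaches to extracellular matrix, has 5 probe sets, of which 2 were tested. In 1370960_at the control arrays ran from -2.06 to -1.32 (median -1.82), with 7 of 10 below the array median. Its irradiated arrays read 1.26, 0.66, 0.92, 1.20 and 0.99, a rise of at least 2.44 (adjusted p = 2.28e-11 for the change as measured). In 1387348_at the control range was -3.67 to -1.32 (median -1.82), with 9 of 10 arrays below the array median. Its irradiated values were 0.43, -0.08, -0.08, -0.39 and -0.13, a rise of at least 1.41 (adjusted p = 8.88e-06 for the change as measured). Both probe sets passed the filter only with irradiated arrays, so the Igfbp5 call as higher partly follows from it. The lower bounds of the 2 give no order of the rises. Of the untested probe sets, 1396152_s_at went from a mean of -4.62 to -1.96 and 1397830_at from -4.67 to -2.53, whereas 1387347_at had means of -5.01 and -5.41. All 3 stayed below the array median on average in both groups, so no size is given.

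Igfbp6, which prefers IGF-2 over IGF-1, rose in both probe sets. In 1372168_s_at the control arrays ran from -1.17 to -0.21 (median -0.35) and the irradiated arrays read 2.01, 1.79, 1.58, 2.02 and 1.75, a change of 2.37 ± 0.17 (SE; adjusted p = 1.41e-09). In 1387625_at the control arrays spread more widely, from -2.45 to -0.51 (median -1.44), and the irradiated values were 1.46, 1.04, 0.75, 1.36 and 1.07, a change of 2.55 ± 0.24 (adjusted p = 3.27e-08). The changes differed by 0.18 (exact permutation p = 0.552, adjusted p = 0.607).

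Igfbp4, an inhibitory binding protein cleaved by the protease pappalysin, showed the smallest rise of the family as measured. Control arrays ran from -0.99 to -0.56 (median -0.86) and irradiated arrays read 0.59, -0.03, 0.02, 0.14 and 0.12. The lowest irradiated array stood 0.54 above the highest control array. The change was 0.97 ± 0.11 (SE; adjusted p = 2.48e-07), or 1.96-fold, and ranked 3519 of 10841 genes by rise, whereas Igfbp3, Igfbp7, Igf2, Igf1r, Igfbp2, Igfbp5, Igfbp6 and Igf2r ranked 227, 380, 402, 549, 616, 695, 1040 and 2368. These ranks use measured means, also those below the array median.

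How the array level is set decides which members rose relative to what. With arrays centred on their median, on their 75th percentile, or quantile normalized, the 17 probe sets kept their direction and stayed past the threshold, with changes of 0.82 to 4.21, 0.60 to 3.99 and 0.63 to 4.30. The Sertoli list used for centring has 16 markers, of which 13 were tested. Amh and Gdnf, below the median in every array, are among the 16, so the shift is not that of the 13 alone. When each array was centred on the mean of these 16 markers, the median change of all probe sets moved from 0.30 to -1.24. Of the calls, 18.5% were higher, against 58.8% as deposited and 47.8% with the 75th percentile. Relative to those markers, Igfbp4 was lower (-0.57, adjusted p = 5.2e-05), and Igf2r (-0.04 and -0.09, adjusted p = 0.778 and 0.394) and 1368123_at of Igf1r (-0.14, adjusted p = 0.331) did not pass. Igfbp5 1387348_at did not pass either (0.44, adjusted p = 0.17), and the other 12 probe sets were still higher. As deposited, the changes of 12 of the 17 exceeded the median of 13 tested Sertoli markers (2.27), and those of 7 exceeded the median of 11 Leydig markers (3.11). With dim control arrays held at their medians these counts were 12 and 6, since the bound of Igf2 is 2.90. The macrophage marker median was 3.25 as measured, and only the measured changes of the Igf1 and Igfbp3 probe sets exceeded it. That median rests on markers dim in control testes. Cd68, Cd163, C1qb and Ptprc were below the array median in all 10 control arrays, and C1qa and C1qc in 9. Their rises have only lower bounds, so 3.25 gives no order of these markers against the family or the other lists.

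**Figure D3:**
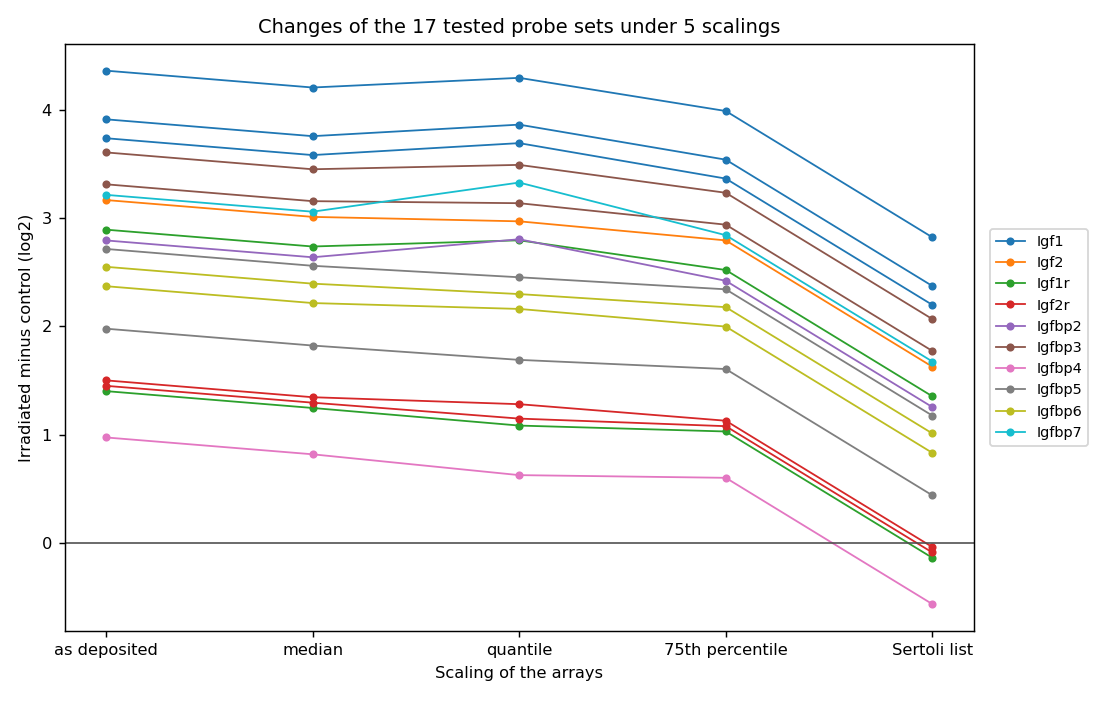
Change of the 17 tested probe sets (irradiated minus control, log2), 1 line each and coloured by gene, under 5 ways of scaling the arrays. The lines stay above 0 for 4 scalings, and the lines of Igf2r, Igfbp4 and 1 Igf1r probe set end below 0 when arrays are centred on Sertoli markers.

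The irradiated arrays were not alike within the family. Irradiated replicate 1 gave the highest of the 5 values in 9 of the 17 probe sets and the lowest in none, and it also had the highest array median of all 15 (-1.26) and the highest 75th percentile (0.24). Array medians ran from -1.61 to -1.37 in control and from -1.38 to -1.26 in irradiated arrays. Without irradiated replicate 1, the 17 changes ran from 0.87 to 4.26 and all passed. The actin signal at the 3' end exceeded that at the 5' end, a gap that widens as RNA degrades, by 0.65 to 1.89 in control arrays, most in replicates 6, 7 and 8, and by 0.90 to 1.16 in irradiated arrays. Without those 3 control arrays, the 17 changes ran from 0.95 to 4.28 and all passed.

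Gene order in RefSeq puts Igfbp2 and Igfbp5 side by side on chromosome 9, and both rose. The protein-coding gene on the far side of Igfbp5 is Tnp1, which encodes a transition protein of spermatid chromatin. Its probe set 1387473_at was at least 116-fold lower in irradiated testes (adjusted p = 1.85e-11 for the change as measured). Igfbp3 lies beside Igfbp1, whose 1 probe set was below the array median in every array and was not tested. H19, the imprinted non-coding RNA whose control region is shared with Igf2, did not pass as deposited (H19 1371298_at, -0.07 ± 0.09, adjusted p = 0.449). Its call depended on scaling, with -0.23 after centring on the median (adjusted p = 0.0335), -0.38 after quantile normalization (adjusted p = 0.00167), -0.44 after centring on the 75th percentile (adjusted p = 0.000531) and -1.61 after centring on Sertoli markers (adjusted p = 8.56e-10).

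Other genes of the pathway, listed by role, went in both directions. The lists were drawn up with earlier results of these data known. Of 58 tested, 32 were higher and 12 lower, with a median change of 0.57, and 47.6% of all tested genes were higher and 37.9% lower. Jak2, Irs2, Rps6kb1, Plagl1, Irs3 and Ccn2 passed the filter only with irradiated arrays, so their calls as higher partly follow from it. Igf2bp3, Socs2, Tsc1, Pappa2 and Ccn4 passed it through control arrays alone, so the same holds for their calls as lower. Among other carriers and IGFBP proteases, 3 of 10 listed genes were tested. Htra1, a secreted serine protease that can cleave IGFBPs, rose by 3.76 ± 0.14 (SE; adjusted p = 1.25e-13), from -0.79 ± 0.29 (SD, n = 10) to 2.97 ± 0.08 (SD, n = 5). Pappa2, a pappalysin that cuts IGFBP-3 and IGFBP-5, was at least 1.18-fold lower (adjusted p = 0.00779 for the change as measured). Igfals, the further subunit of the circulating IGFBP-3 complex, was below the array median in every array.

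The insulin receptor and the adaptors that receptors of this type use had 10 of 13 tested genes higher and 1 lower, with a median change of 1.79. Irs2, a docking protein for both receptors, was below the array median in all control arrays and at least 1.90-fold higher. The adjusted p of its change as measured was 7.86e-07. Irs1 was below the median in every array and was not tested. Sos1, which loads RAS with GTP, rose by 2.03 ± 0.11 in its brightest probe set (adjusted p = 2.06e-11) and did not pass in another (0.23, adjusted p = 0.289). Gigyf2 fell by 1.31 in its brightest probe set, and its 4 tested probe sets went from -2.87 to 0.80.

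Of 21 tested genes of the PI3K, AKT and mTOR branch, 13 were higher and 5 lower, with a median of 0.53. The kinase gene Akt1 rose by 2.79 ± 0.11 in its brightest probe set (adjusted p = 3.24e-13) and by 2.29 in another, while 1375178_at did not pass (-0.09, adjusted p = 0.474). Foxo3, a transcription factor that AKT phosphorylates, rose by 2.60 ± 0.14 (adjusted p = 2.88e-11), with 2 further probe sets too dim to test. Gsk3b, a kinase that AKT inhibits, fell by 2.76 ± 0.12 (adjusted p = 8.5e-13). Tsc1, a brake on mTOR, had probe sets in opposite directions: 1369362_at was at least 2.94-fold lower and 1389776_at rose by 0.83. The change of 1369362_at as measured had adjusted p = 2.35e-09. The RAS and MAPK branch had 2 of 4 tested genes higher and 1 lower, with a median of 0.34.

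Growth hormone signalling, which drives Igf1 in liver, had 1 of 5 tested genes higher and 1 lower, with a median of 0.08. Jak2, the kinase of the growth hormone receptor, was below the array median in all 10 control arrays and at least 4.41-fold higher. Socs2, a feedback inhibitor of the same receptor, was below the median in all 5 irradiated arrays and at least 1.46-fold lower. Their changes as measured had adjusted p = 1.18e-06 and 3.32e-08. Both probe sets of the receptor gene Ghr missed the filter. Their means went from -4.35 to -1.46 and from -5.70 to -1.63, with all irradiated arrays above all control arrays but the means of both groups below the array median.

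Genes that bind IGF mRNA, belong to imprinted loci or serve the mannose 6-phosphate route had 4 of 8 tested higher and 1 lower, with a median of 0.36. Plagl1, an imprinted zinc finger gene, was below the array median in 9 of 10 control arrays and rose by at least 2.21. The adjusted p of its change as measured was 2.26e-06. M6pr, the second mannose 6-phosphate receptor besides Igf2r, rose by 2.76 ± 0.11 (adjusted p = 3.64e-13). Igf2bp3, which encodes an RNA-binding protein of Igf2 mRNA, was at least 12.0-fold lower (adjusted p = 4.49e-13 for the change as measured). Its 3 probe sets were all lower. In the CCN family, whose proteins share the IGFBP-like module, 1 of 4 tested genes was higher and 2 were lower, with a median of -0.32.

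**Figure D4:**
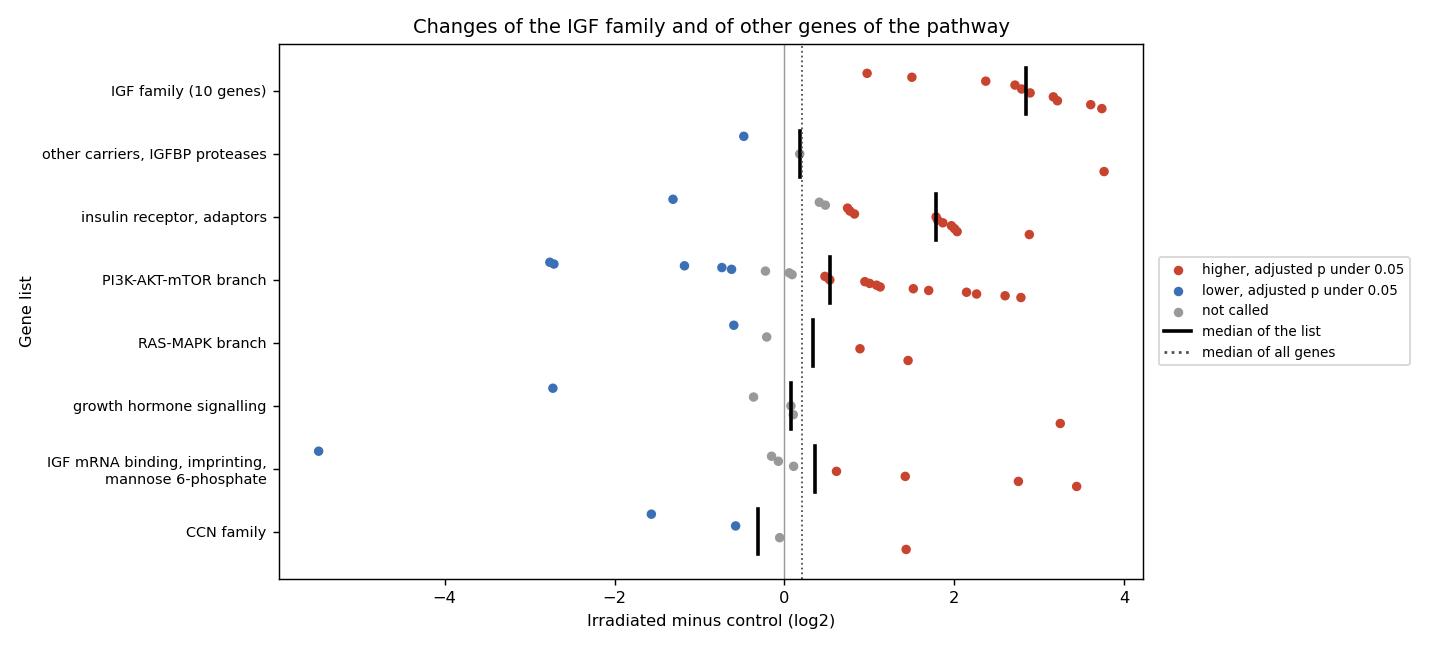
Change (irradiated minus control, log2) of each tested gene, by its brightest probe set, for the IGF family and the 7 other lists of the pathway, coloured by call, with each list's median as a black bar and the median of all genes dotted. The 10 family genes lie between 0.97 and 3.74, and 6 of the 7 lists of other genes have medians under 1.

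The genes whose arrays varied most like a member's were looked up after group means were removed. Over 15 arrays, 7 members were at or above the array median on average in both groups, and for each the 3 most alike of all genes are given with Pearson's r as a description. For Igf1 these were Grn, Mindy2 and Rab34 (r = 0.82, 0.82 and 0.80). For Igfbp7 they were Ltn1, Twf2 and Capzb (0.82, 0.82 and 0.80), and for Igfbp2 Slc27a3, Tpi1 and Eif6 (0.85, 0.85 and 0.85). Igf2r was most like Avpi1, LOC102549726 and Chmp4c (0.81, 0.80 and 0.78), Igfbp4 most like Tmbim1, Abraxas2 and Pitpna (0.86, 0.80 and 0.78), and Igfbp6 most like Tsen15, Ddx28 and Ap1s1 (0.85, 0.84 and 0.82). Igf1r was most like Nid2, 6430548M08Rikl and Nufip2 (0.84, 0.84 and 0.84). No family member was among these genes for another member. The arrays share depth of labelling and RNA quality, which such correlations contain. The genes were picked as the highest of 10841 over 15 arrays, so these r are high partly by that choice. Likeness within groups need not extend to the group change. Igfbp7 rose by 3.22, while Ltn1, Twf2 and Capzb changed by -3.33, -1.76 and 0.43.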

How the data were processed

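The authors deposited 1 log2 value per probe set and array. Per the submitters' processing notes MAS5 was used (no version named). No source used here gives the scaling or the log step. Spike-ins, rising by 0.86 units per doubling in control and 0.88 in irradiated arrays, were used to settle base 2. The zero point is unknown. The table holds 15 arrays with no missing value, 0 unused columns and 0 identical pairs. Gene names come from the platform's annotation, and the 10 gene identifiers were found in RefSeq (GRCr8).

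Values were used as deposited. Probe sets at or above the array median in at least 5 arrays were tested in R 4.3.3 by lmFit and eBayes of limma 3.58.1, 2-sided and with no covariate, with Benjamini-Hochberg adjustment over 18711 probe sets and a threshold of 0.05. Standard errors are limma's moderated ones, and n is 10 and 5. The fit was tested on simulated data. The brightest probe set stood for a gene. Lower bounds hold each array of the dim group at no less than its median, since no detection calls were used. An adjusted p beside a bound comes from the fit to the deposited values, and the bounds were not tested. The changes of probe set pairs were compared by exact permutation, adjusted over 11 pairs. Outside the closing section, differences are given only where both probe sets were measured in both groups. The closing section also holds pairs with dim controls, which give no order. A planned pair of Igf1 with Ghr was not run because Ghr missed the filter. Names given are all family members, the 4 largest rises and falls among pathway lists, and the 3 most alike genes. Insr and Ghr belong to planned pairs, and Igfbp1 is named as a neighbour of Igfbp3. Tnp1, H19, M6pr, Akt1, Foxo3, Pappa2, Igfals, Irs1, Sos1 and Gigyf2 were named after their values were seen. So were the cell type markers named as dim and the genes named for how they passed the filter. Members and lists were chosen with earlier results of these data known. Precision is limited by the number of arrays.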

Additional observations from a re-analysis of the deposited data

Results flagged for a closer look

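A gap test for 1 array far from the rest of its group marked 7 of 62 groups of arrays; chance marks about 1 in 20. Irradiated replicate 1 was the high array in 3 of them: 2.67 for Igf1 1382599_at (nearest array 2.23), 2.30 for Igf2r 1386872_at (nearest 1.84) and 0.59 for Igfbp4 1371462_at (nearest 0.14). Without it the changes of these probe sets were 4.26, 1.40 and 0.87, and all passed. Irradiated replicate 5 was low for Igf2 1367571_a_at at 1.26 (nearest 1.65). Control replicate 6 was low for Igfbp3 1367652_at at -2.43 (nearest -1.82). Among untested probe sets below the array median, control replicate 7 was low for Igf2 1371206_a_at at -5.26 (nearest -4.43), and irradiated replicate 4 for Igfbp5 1397830_at at -4.60 (nearest -2.20).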

How the results depend on the processing

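The 17 tested family probe sets stayed higher and past the threshold with the median, 75th percentile and quantile scalings, a pseudocount of 1 on the back-transformed scale (changes of 0.44 to 3.04), an intensity trend, array weights, the exact permutation test, control replicates 1 to 5 or 6 to 10 only, and each array left out; 2 of them did not enter the stricter filter at the 75th percentile, where 15 were tested and called. Centring on the Sertoli list turned Igf1r 1368123_at to -0.14, Igf2r 1367636_at to -0.0891, Igf2r 1386872_at to -0.0387, Igfbp4 to -0.57 and Insr to -1.13, and left 1 family probe set lower. It gave 2985 higher and 13176 lower probe sets and 1667 higher and 7880 lower genes, against 9172, 6426, 5161 and 4111. The filter at the 75th percentile, which tests fewer probe sets, gave 5360 and 4082. With no filter 2 family probe sets were lower, Igf2 1398322_at (-0.93, adjusted p = 0.000769) and Igfbp5 1387347_at (-0.39, adjusted p = 0.0331), and 2 more of Igfbp5 were higher, all below the array median on average in both groups. H19 was 0.0449 with control replicates 1 to 5 only and with the replicate block. With 1 array left out, differences between changes as measured ranged from -0.74 to -0.52 for Igf1 1370333_a_at and 1382599_at (call lost in 7 of 15 fits), from 0.34 to 0.51 for Igf1 1382599_at and 1388469_at (lost in 10), from 0.60 to 0.89 for the Igfbp5 pair (lost in 7), from 0.45 to 0.65 for Igf1 and Igf2 (gained in 1) and from -0.12 to 0.0187 for the Igf2r pair. All but the last include probe sets with dim controls, so they give no order. Averaging all tested probe sets of a gene kept the 10 genes higher. Same-numbered arrays share only a number: the correlations of their deviations were -0.05 to 0.07, and 1 of 5 control and 2 of 5 irradiated arrays correlated best with their own number. With the replicate block, 17 family probe sets were higher, and 8939 higher and 6184 lower overall; Insr passed (0.73, adjusted p = 0.00668) and Pappa2 did not (-0.37, adjusted p = 0.0522). The run without control replicates 6, 7 and 8 was chosen after seeing the data.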
